A study of Homo sapiens with 12 samples.

Results

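The proteasome subunits were 42 genes chosen by symbol: the alpha and beta rings of the 20S core (PSMA1 to PSMA7, PSMB1 to PSMB10), the 19S cap (PSMC1 to PSMC6, PSMD1 to PSMD14), the activators PSME1 to PSME4 and the inhibitor PSMF1. Of these, 41 matched a counted identifier, and no value is given for PSMB3. The count filter of at least 10 reads summed over all libraries was passed by 40 of the 41, and by 26156 genes in all. PSMB8 did not pass.

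RNA-seq was performed in LNCaP cells, an androgen-responsive prostate cancer line. A TALEN, an engineered nuclease aimed at the CTG start codon of Bag-1L, the longest protein form of the BAG1 gene, gave the Bag-1L KO line, and a TALEN control line (control) was cultured beside it. The start codons of the shorter Bag-1 forms were left intact, and TALEN clones were isolated by serial dilution, so the KO and the particular clone cannot be told apart. Control FM and KO FM cells grew in full medium with serum, whereas control EtOH, control DHT, KO EtOH and KO DHT cells were starved of hormone for 72 h in charcoal/dextran-treated serum and then given ethanol (EtOH, the vehicle) or 10 nM of the androgen dihydrotestosterone (DHT) for 16 h. Each of the 6 groups held 2 libraries. Gene counts summed to between 20826843 and 30354666 per library, where 3 counts equal 0.0988 to 0.144 CPM. The luminal prostate markers KLK3 (5353.8 to 23182.0 normalized counts) and KRT8 (12504.2 to 58987.5) were abundant in every library, whereas of the 3 basal markers KRT5 and TP63 did not exceed 3.8 and KRT14 ranged from 0 to 30.7. Of the stromal and leukocyte markers, COL1A1 was at 370.3 to 1012.6 and DCN, PTPRC and CD3E at no more than 9.0. A normalized count is a count divided by the library's DESeq2 size factor. It compares 1 gene across libraries, and levels of different genes were compared only in TPM, counts per transcript length scaled to the same total in every library.

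The proteasome degrades proteins that carry ubiquitin chains. The 20S core is a barrel in which PSMB5, PSMB6 and PSMB7 hold the cutting sites, and the 19S cap binds, deubiquitinates, unfolds and feeds in the substrate by means of its ATPase ring. In cells exposed to interferon, PSMB8, PSMB9 and PSMB10 replace the catalytic subunits, while PSME proteins and PSMF1 can bind the core in place of the 19S cap. The HSP70 cochaperone Bag-1 carries a ubiquitin-like domain by which it can attach to the proteasome. The transcription factor NFE2L1 (NRF1) drives many proteasome genes through antioxidant response elements in their promoters.

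The promoters of 4 subunits that lead the comparisons below are given first. They are PSMD8 and PSMD11 (19S cap) and PSME4 (activator), which rose with DHT in both lines, and PSMC2 (19S ATPase), which was higher in the KO in EtOH and FM. Each is the 250 bases before the transcription start, 5′ to 3′ on the gene's strand, from RefSeq on GRCh38.p14, at chr19:38374321-38374570 (plus strand), chr17:32444260-32444509 (plus), chr2:53970994-53971243 (minus) and chr7:103347393-103347642 (plus). Capitals mark a match to CCAAT, or to TGACNNNGC (the antioxidant response element core), on either strand. No matches overlapped in these promoters.
PSMD8: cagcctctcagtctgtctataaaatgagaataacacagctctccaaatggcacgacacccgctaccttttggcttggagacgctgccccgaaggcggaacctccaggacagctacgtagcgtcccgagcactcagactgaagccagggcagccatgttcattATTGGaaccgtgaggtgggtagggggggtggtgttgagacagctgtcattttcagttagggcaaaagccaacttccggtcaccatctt
PSMD11: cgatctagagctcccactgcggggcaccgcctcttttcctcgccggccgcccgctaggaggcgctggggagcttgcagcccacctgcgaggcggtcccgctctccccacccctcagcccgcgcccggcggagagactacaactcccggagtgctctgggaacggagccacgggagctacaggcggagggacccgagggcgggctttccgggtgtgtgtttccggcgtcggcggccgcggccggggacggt
PSME4: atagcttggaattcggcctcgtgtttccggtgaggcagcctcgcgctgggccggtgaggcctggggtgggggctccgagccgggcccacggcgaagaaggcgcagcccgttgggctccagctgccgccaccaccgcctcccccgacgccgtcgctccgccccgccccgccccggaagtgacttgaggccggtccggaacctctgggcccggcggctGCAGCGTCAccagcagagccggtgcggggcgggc
PSMC2: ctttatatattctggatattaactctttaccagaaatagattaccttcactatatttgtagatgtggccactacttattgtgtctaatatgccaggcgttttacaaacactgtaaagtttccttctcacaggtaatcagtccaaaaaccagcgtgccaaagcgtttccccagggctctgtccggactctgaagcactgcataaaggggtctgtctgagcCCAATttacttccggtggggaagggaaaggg

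PSMD8 and PSMC2 each held 1 CCAAT match, PSME4 held 1 match to TGACNNNGC, and PSMD11 held neither. RefSeq promoters matched 37 of the 42 members with 45 promoters, since some genes have more than 1 start, and none was found for PSMA7, PSMB1, PSMB6, PSMB7 and PSMD4. TGACNNNGC stood in the 250 upstream bases of 11 of the 45 promoters (24.4%), those of PSMA4, PSMB3, PSMB9, PSMC5, PSMD3, PSMD5, PSMD9, PSMD12, PSME1, PSME2 and PSME4, and in 10.9% of all 35116 promoters. CCAAT stood in 17 of the 45 (37.8%) and in 32% of all promoters. The androgen response element (the full palindrome) was in no member's window and in 0.00285% of all. On GRCh37, the build of the counts, PSMD8 lies at chromosome 19, 38865203 to 38874490, PSMD11 at chromosome 17, 30771397 to 30810337, PSME4 at chromosome 2, 54091206 to 54198130, and PSMC2 at chromosome 7, 102969017 to 103010793. All 4 are protein coding.

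RNA of the BAG1 gene was read first. It cannot show the loss of Bag-1L, since all Bag-1 forms are translated from the same mRNA. The paper checked the KO by western blot and by sequencing part of exon 1, and reported more Bag-1S and Bag-1 protein in it. Control libraries held 1701.5 and 2702.6 normalized BAG1 counts in EtOH, 2198.9 and 2630.7 in DHT, and 2117 and 1967.7 in FM. KO libraries held 1191.4 and 1103, 1075.5 and 1113.6, and 1452.2 and 1576.1, respectively. Every KO library was below every control library. The log2 fold change of KO against control was -0.94 ± 0.18 (SE) in EtOH and -1.14 ± 0.18 in DHT, both past the threshold (DESeq2 adjusted p 6.35e-06 and 7.71e-09), and -0.43 ± 0.18 in FM, which was not (adjusted p = 0.0682). The counts are per gene and do not separate the Bag-1 forms.

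In both control EtOH and control DHT, the 2 libraries stood apart from each other. Over the 38 members averaging 100 normalized counts or more, replicate 2 exceeded replicate 1 by a median of 0.301 on the log2 scale in control EtOH and by 0.233 in control DHT. Across 11374 genes of that abundance the median difference was 0.00798 and 0.0164. In the other 4 groups the members' median difference lay between -0.0919 and 0.0651. The difference was positive in 31 of 38 members in control EtOH and in 28 in control DHT. It followed transcript length: across the members, which share the same pair of libraries, Spearman's rho with length was -0.65 and -0.46, and across 11228 genes -0.65 and -0.51. Such a relation was not particular to these groups, with rho over the members of -0.66 in KO FM, 0.65 in KO EtOH, -0.39 in KO DHT and 0.25 in control FM. The difference also went with the share of G and C bases in the transcript in some groups. Across the 11228 genes that rho was 0.35 in control EtOH, -0.18 in control DHT and -0.57 in control FM. In the KO it was 0 in EtOH, 0.7 in DHT and 0.22 in FM. With 2 libraries a group, which of them deviates cannot be told. The part of this difference in the results below was not tested, and counts of members that rest on these libraries are given with and without them.

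**Figure D1:**
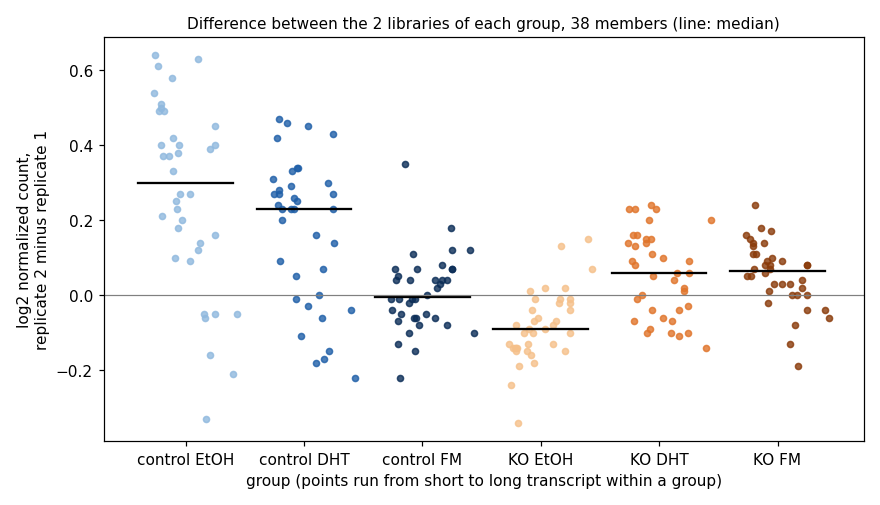
Difference in log2 normalized count between the 2 libraries of each group (replicate 2 minus replicate 1, y axis) for 38 proteasome members, 1 point per member, placed within a group from the shortest to the longest transcript, with the median as a line. The members lie mostly above 0 in control EtOH (median 0.301) and control DHT (median 0.233), and short transcripts lie higher there than long ones.

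Levels per length spanned from 762 TPM for PSMA7, the alpha subunit with the highest mean over all libraries, to 0.0427 TPM for PSMB8. After PSMA7 came the beta subunits PSMB4 (730), PSMB1 (706), PSMB6 (485), PSMB7 (447) and PSMB5 (417). PSMA7 ranged from 613 to 1040 TPM over the libraries and PSMB4 from 655 to 793, so these neighbours overlapped in range. The catalytic subunits PSMB6 (408 to 552), PSMB7 (408 to 484) and PSMB5 (346 to 488) overlapped as well. Among the chosen members of the 19S cap, PSMD2, a large scaffold subunit, stood highest with 362 TPM. SEM1, a further subunit that is not among the chosen symbols, had group means of 453 to 621 TPM.

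PSME1 and PSME2, which together form the interferon-inducible 11S activator, were measured at 282 and 263 TPM. The nuclear activators PSME3 and PSME4 were at 168 and 43.1, and PSMF1 at 43.8. The interferon-inducible core subunits were scarce, with 2.27 TPM for PSMB10 and 1.3 for PSMB9. PSMB8 had at most 2 counts in any library, under the floor of 3 counts, and both PSMB8 and PSMB9 lie in the HLA region, where the counting of alternative sequences was not checked.

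The levels of some members are uncertain from the counting. Another annotated gene shared 67.0% of the exon bases of PSMA1, 100.0% of PSMA2, 81.4% of PSMA6, 56.1% of PSMB10 and 28.8% of PSMD9 on the same strand, and reads that fit 2 genes are left out by the counter. Antisense genes overlapped 83.2% of PSMC1 and 51.6% of PSMD7, and the strand setting of the counting is not given. Reads left out as ambiguous made up 6.9% to 7.97% of the tallied reads of a library.

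**Figure D2:**
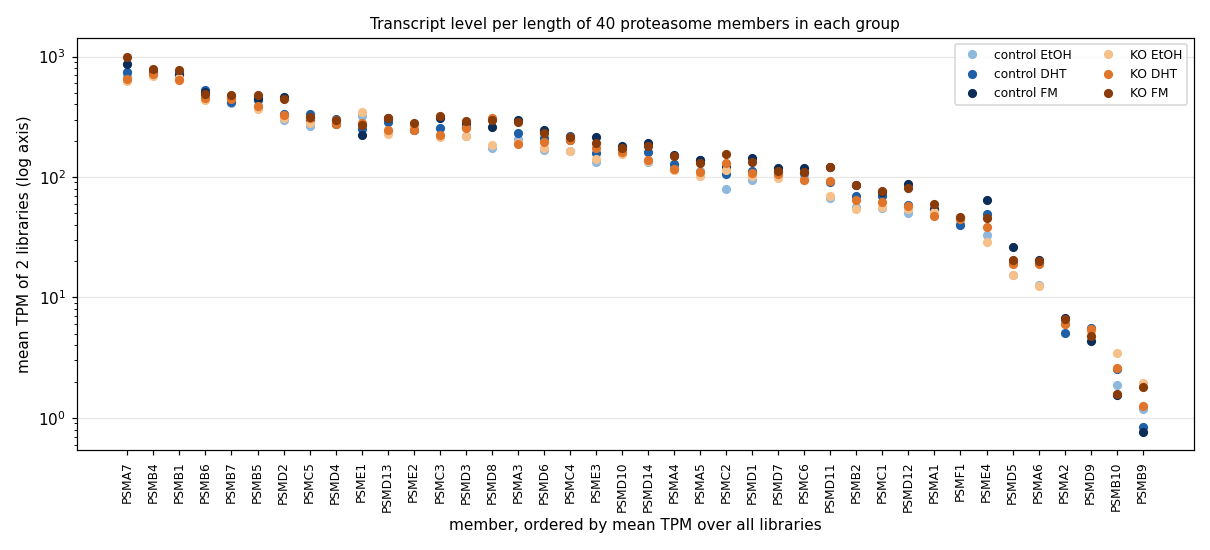
Mean TPM of the 2 libraries of each group (log axis) for 40 proteasome members, ordered by their mean over all libraries, with 1 colour per group. PSMA7 is highest with 762 TPM and PSMB9 lowest of those drawn with 1.3 TPM. PSMB8, with a library at 0, is not drawn.

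DHT was compared with EtOH in control cells to see which subunits respond to androgen. Of 40 members tested, 18 rose, 0 fell and 22 did not pass the threshold of adjusted p at most 0.05 (DESeq2, with 20 higher and 0 lower at an unadjusted p under 0.05, edgeR calling 14 and 0, with 1 lower at the unadjusted level). Among all 17535 genes tested, 11.2% rose and 8.75% fell. Among abundant genes, averaging 1000 normalized counts or more, 20.5% rose. The members' median log2 fold change was 0.29 beside -0.02 over all genes and 0.07 over abundant ones. A value above 0 was held by 37 of the 40 members (92.5%), beside 48.2% of all genes and 60.1% of abundant ones. A fold change of at least 1.5 with adjusted p at most 0.05 was reached by 3 members, PSMD8, PSME4 and PSMA6, beside 11.4% of all genes. These are bulk libraries, in which fewer cells of a type and less RNA per cell cannot be told apart.

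The 19S cap held most of the members that rose. Of its 11 chosen non-ATPase subunits 8 rose, of its 6 ATPases 4, whereas of the 7 alpha subunits 2 and of the 6 measured constitutive beta subunits 1 did so. Whether these groups differ was not tested. PSMD8, a lid subunit, showed the largest rise. It was measured at 3145.1 and 3695.4 normalized counts in control EtOH and at 6258.3 and 6226.8 in control DHT. Both DHT libraries were above both EtOH libraries, with a log2 fold change of 0.87 ± 0.11 (SE, DESeq2 adjusted p = 1.45e-12).

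PSME4, also named PA200, caps the core without ATP and is known for its role in histone turnover. Its normalized counts were 3248.8 and 2806.1 in EtOH and 4953 and 4806.5 in DHT, a log2 fold change of 0.69 ± 0.11 (adjusted p = 2.56e-08). PSMD11, the lid subunit RPN6, went from 3469.6 and 3103.5 to 5024.6 and 4541.2, or 0.54 ± 0.10 (adjusted p = 9.99e-07). In none of the 3 did the EtOH and DHT libraries overlap. The alpha subunit PSMA6 rose as well, from 146.5 and 190 to 253.4 and 290.5 (0.69 ± 0.20, adjusted p = 0.00446), on the few reads that the counting left to it.

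The ATPases PSMC4 (0.51), PSMC2 (0.49), PSMC5 (0.42) and PSMC1 (0.40) rose, and PSMC3 (0.32) and PSMC6 (0.24) did not pass. Among the other non-ATPases that rose were PSMD6 (0.42), the deubiquitinase PSMD14 (0.38), PSMD1 (0.35), PSMD3 (0.33), PSMD12 (0.30) and PSMD2 (0.23). PSMD13 (0.36), PSMD7 (0.19) and the ubiquitin receptor PSMD4 (0.10) did not pass. The remaining members that rose were PSMA5 (0.39), PSMB2 (0.37), the nuclear activator PSME3 (0.34) and PSMD5 (0.44), a chaperone of 19S base assembly.

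None of the 3 catalytic subunits passed. PSMB5 had a log2 fold change of 0.25 ± 0.15, PSMB6 of 0.20 ± 0.18 and PSMB7 of 0.10 ± 0.11. Their inducible counterparts did not pass either, with -0.43 ± 0.60 for PSMB9 and 0.52 ± 0.44 for PSMB10. PSME1 (-0.30 ± 0.16), PSME2 (0.06 ± 0.16) and PSMF1 (0.05 ± 0.11) did not pass. PSMF1 was between 4063.1 and 4741 in all 12 libraries.

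The count of 18 depended on the libraries that stood apart. It was 29 without control EtOH replicate 2, 9 without control DHT replicate 2, 11 without control EtOH replicate 1 and 19 without control DHT replicate 1. With replicate 2 of both groups left out it was 22, and with replicate 1 of both left out 18. PSMD8, PSMD11 and PSME4 passed in all 13 alternatives, whereas 7 members passed with size factors from total counts, which moved the median of all genes by -0.131, and 3 in a fit of only these 4 libraries. The stromal marker COL1A1 also rose with DHT in control (0.41, DESeq2 adjusted p = 0.015), and its 0.06 in the KO did not pass. The difference of these 2 responses (-0.34) was not called. Mean normalized counts of the other stromal and leukocyte markers in control EtOH and DHT were 6.9 and 5.6 for DCN, 0.5 and 0 for PTPRC, and 1 and 0 for CD3E. The part of COL1A1 in the result was not tested.

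**Figure D3:**
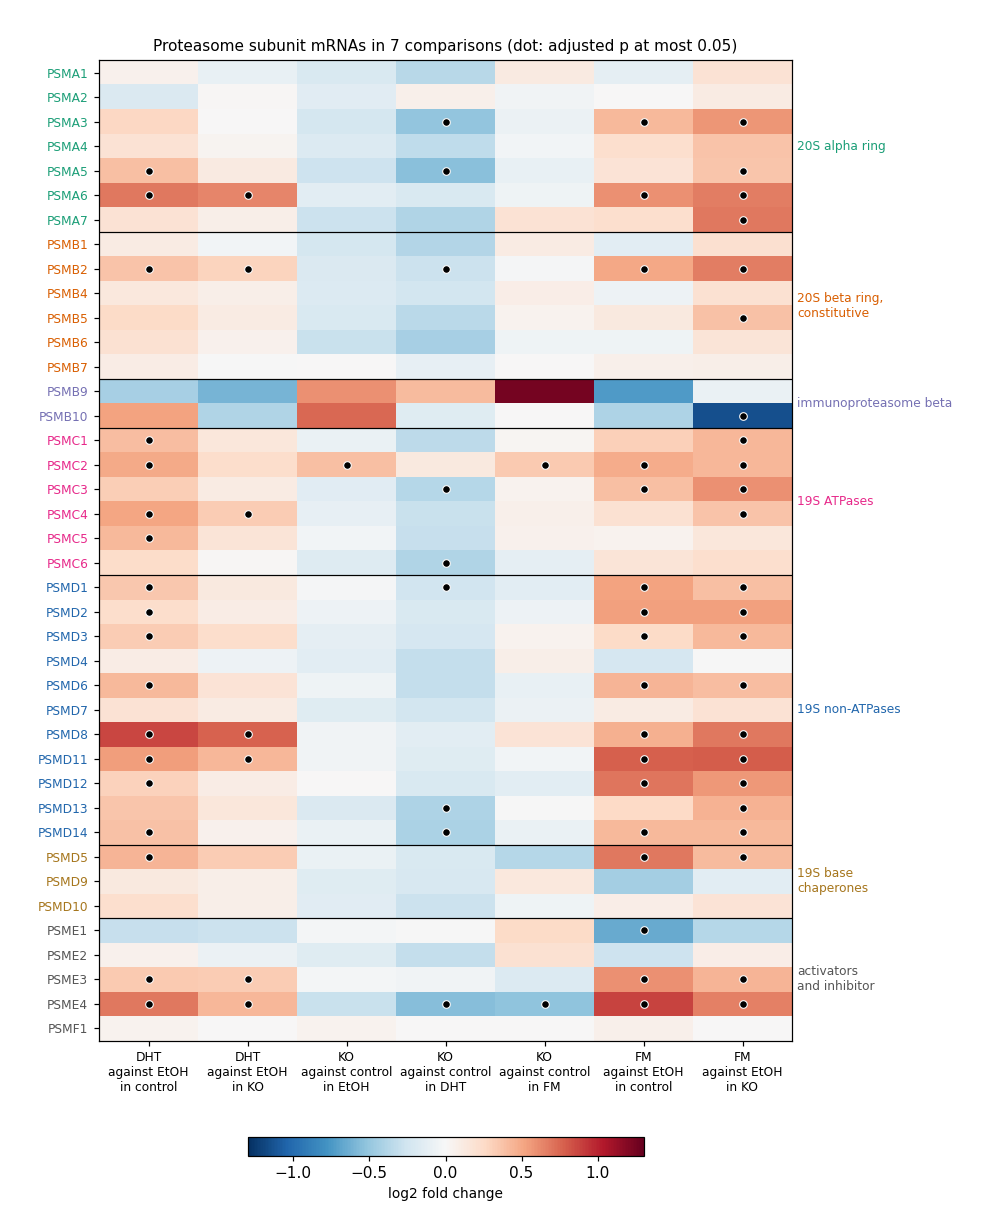
Log2 fold change (colour) of 40 proteasome members (rows, grouped by role) in 7 comparisons (columns), where a dot marks adjusted p at most 0.05. Dots for a rise stand mainly in the DHT and FM columns, 18 and 7 with DHT in control and KO, 16 and 22 with FM, and dots for a fall mainly in KO against control in DHT (9).

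In the KO, DHT raised 7 of 40 members and lowered 0 (DESeq2, with 10 higher and 0 lower at an unadjusted p under 0.05, edgeR calling 5 and 0). Of all 17535 genes tested, 8.02% rose and 5.57% fell, and of abundant genes 14.7% rose. The members' median log2 fold change was 0.10 beside -0.01 over all genes and 0.05 over abundant ones. A value above 0 was held by 31 of 40 members (77.5%), beside 48.1% of all genes and 58.5% of abundant ones. PSMD8 and PSMA6 reached a fold change of 1.5, beside 7.68% of all genes.

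PSMD8 was again the member with the largest rise. It was at 3356 and 3267.5 normalized counts in KO EtOH and at 5187.7 and 6112.6 in KO DHT, with a log2 fold change of 0.77 ± 0.11 (DESeq2 adjusted p = 7.69e-10). PSMD11 went from 3151.4 and 3198.8 to 4248.6 and 4310.8 (0.43 ± 0.10, adjusted p = 0.00027). PSME4 went from 2351.1 and 2602.1 to 3490.2 and 3162.4 (0.43 ± 0.11, adjusted p = 0.0024). In each of the 3 both DHT libraries were above both EtOH libraries. In the KO, PSMD8 and PSMD11 passed in all 11 alternatives and PSME4 in 9 of them, with a log2 fold change of PSME4 between 0.35 and 0.50.

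PSMA6 (0.63), PSMC4 (0.33), PSME3 (0.33) and PSMB2 (0.29) were the others that rose. All 7 had also risen in control cells, where they made up 7 of 18. Each line was compared with its own EtOH libraries. PSMC2, which rose in control, had 0.23 ± 0.10 in the KO (adjusted p = 0.143). PSMA5 had 0.12 ± 0.14 and PSMD14 0.06 ± 0.12. The catalytic PSMB5 (0.11), PSMB6 (0.06) and PSMB7 (-0.01), the inducible PSMB9 (-0.60) and PSMB10 (-0.39), PSME1 (-0.28), PSME2 (-0.08) and PSMF1 (0.00) did not pass. Without any 1 of the 4 libraries, 3 or 4 members rose.

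Whether the DHT response differed between the lines was tested as a difference of differences (KO minus control). Of 38 members tested 0 were called, and 0 had an unadjusted p under 0.05 (DESeq2, edgeR calling 0 with 1 lower at an unadjusted p under 0.05). Of all 13478 genes tested 0.438% were called. The members' median difference was -0.14 beside 0 over all genes and -0.02 over abundant ones. Of the 38 members 2 (5.26%) lay above 0, beside 49.1% of all genes and 42.7% of abundant ones. The members' median was -0.32 without control EtOH replicate 2 and -0.03 without control EtOH replicate 1.

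The members' 95% intervals were wide against these values. PSMC2 had a difference of -0.26 (-0.55 to 0.02), PSME4 of -0.26 (-0.58 to 0.05) and PSMD14 of -0.32 (-0.66 to 0.03) on the log2 scale. That a member passed in control and not in the KO therefore does not show a different response.

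**Figure D4:**
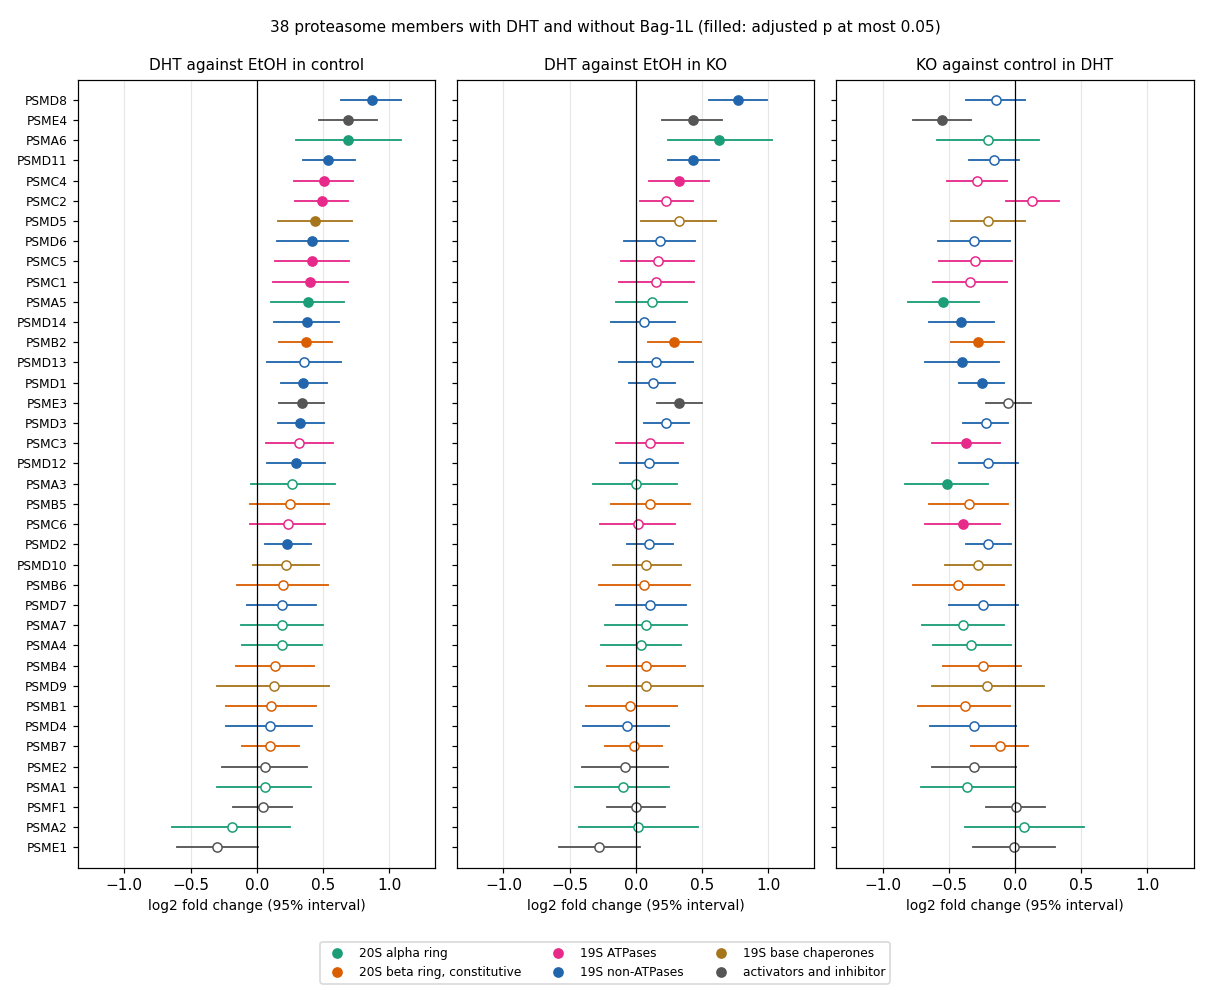
Log2 fold change with its 95% interval (x axis) for 38 proteasome members, ordered by the response to DHT in control, coloured by role, for DHT in control, DHT in KO, and KO against control in DHT. Filled points pass adjusted p at most 0.05, which are 18 rises, 7 rises and 9 falls. PSMB9 and PSMB10 are left out for their wide intervals.

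KO was then compared with control within each condition. In DHT, 9 of 40 members were lower in the KO and 0 higher (DESeq2, with 22 lower and 0 higher at an unadjusted p under 0.05, edgeR calling 4 and 0). Among all 16014 genes tested, 8.73% were lower and 7.63% higher, and among abundant genes 15.1% were lower. The median log2 fold change was -0.28 over the members, -0.02 over all genes and -0.08 over abundant ones. A value above 0 was held by 4 of 40 members (10%), beside 47.8% of all genes and 37.3% of abundant ones. No member reached a fold change of 1.5, beside 7.98% of all genes. This comparison uses the same control DHT libraries as the DHT response above. The stromal marker COL1A1 was lower in the KO too, where its 685.8 and 803.8 normalized counts stood beside 1012.6 and 972.4 in the control (-0.42, adjusted p = 0.0152), while DCN, PTPRC and CD3E did not exceed 6.1 in these libraries, and its part in the result was not tested.

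PSME4 was lowest against control. Its 4953 and 4806.5 normalized counts in control DHT stood beside 3490.2 and 3162.4 in KO DHT, a log2 fold change of -0.55 ± 0.11 (DESeq2 adjusted p = 2.55e-05). The alpha subunit PSMA5 was at 6527.9 and 8021.3 in control and at 4978.7 and 5020 in the KO (-0.54 ± 0.14, adjusted p = 0.00162). PSMA3, another alpha subunit, was at 2574.4 and 3575.9 beside 2208.2 and 2104.6 (-0.51 ± 0.16, adjusted p = 0.0135). Both KO libraries were below both control libraries in each case, and in PSMA5 and PSMA3 control replicate 2 was the higher.

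Next among the members called was PSMD14, the lid deubiquitinase, from 3079.2 and 3885.6 to 2666.4 and 2584.7 (-0.41 ± 0.12, adjusted p = 0.0101). The others called lower were PSMD13 (-0.40), PSMC6 (-0.39), PSMC3 (-0.37), PSMB2 (-0.28) and PSMD1 (-0.25). The catalytic PSMB6 (-0.43), PSMB5 (-0.35) and PSMB7 (-0.11), the inducible PSMB9 (0.41) and PSMB10 (-0.16), PSME1 (-0.01), PSME2 (-0.31) and PSMF1 (0.01) did not pass. PSMD8 (-0.14) and PSMD11 (-0.16), which led the DHT response, did not pass.

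The count of 9 was 1 without control DHT replicate 2 and 16 without control DHT replicate 1. The other libraries left out in turn gave 2 (KO DHT replicate 1) and 3 (KO DHT replicate 2). With replicate 1 of both control EtOH and control DHT left out it was 26, and with replicate 2 of both left out 8. Size factors by TMM gave 4, and those from total counts, which moved the median of all genes by 0.119, gave 3. PSME4 passed in all 13 alternatives, with a log2 fold change between -0.63 and -0.43, and PSMA5 in 12.

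In EtOH, 1 of 40 members was higher in the KO, PSMC2, and 0 were lower (DESeq2, with 1 higher and 2 lower at an unadjusted p under 0.05, edgeR calling 1 and 0). Of all 16521 genes tested 4.71% were higher, 5.1% lower and 5.11% past the fold change of 1.5, which no member reached. PSMC2 was at 2679.7 and 2918.5 normalized counts in control EtOH and at 3774.2 and 3561.1 in KO EtOH (0.39 ± 0.10, adjusted p = 0.00328). The groups did not overlap. The members' median was -0.14 beside -0.01 over all genes and -0.06 over abundant ones. Without control EtOH replicate 2 the members' median was 0.02. The number of members lower in the KO was 13 without control EtOH replicate 1 and 1 without replicate 2. The call of PSMC2 was lost without either KO EtOH library and in a fit of only these libraries. PSME4, at -0.29 ± 0.11, did not pass (adjusted p = 0.0887).

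In FM, PSMC2 was again higher and PSME4 again lower in the KO, and the other 37 of 39 members tested did not pass. Of all 15000 genes tested 9.27% were higher, 9.24% lower and 8.01% past the fold change of 1.5, which no member reached. PSMC2 was at 3849.7 and 3968.6 normalized counts in control FM and at 4882.7 and 4997.9 in KO FM (0.34 ± 0.10, DESeq2 adjusted p = 0.00978). PSME4 was at 5357.1 and 5823.5 in control FM and at 3959.3 and 3843.8 in KO FM (-0.52 ± 0.11, adjusted p = 0.000123). For neither did the groups overlap.

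PSMC2 stood higher in the KO in DHT too, by a log2 fold change of 0.13 ± 0.10, but did not pass (adjusted p = 0.454). In FM its call was lost without any 1 of the 4 FM libraries, and that of PSME4 without control FM replicate 2 (adjusted p = 0.051). In a fit of only these libraries 5 members were higher and 3 lower. The members' median was -0.01 in FM, the same as over all genes, beside -0.06 over abundant ones. With other size factors the members' median was above 0 (0.01 with TMM, 0.06 with total counts). Neither FM group holds the libraries of control EtOH and control DHT, which differed from each other.

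**Figure D5:**
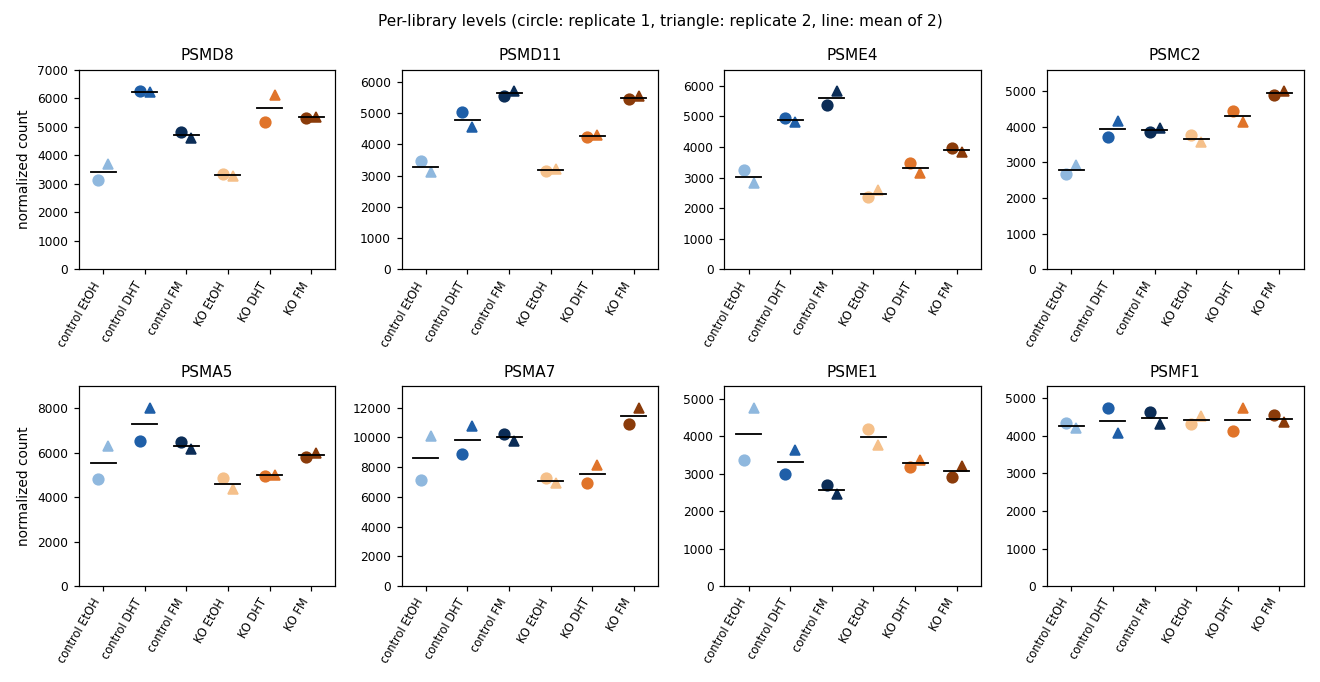
Normalized counts (y axis from 0) of 8 proteasome members in each of the 12 libraries by group (circle, replicate 1; triangle, replicate 2; line, mean of 2). PSMD8, PSMD11 and PSME4 are higher in DHT and FM than in EtOH in both lines, PSMC2 is higher in KO EtOH and KO FM than in the matching control, PSME4 is lower in KO DHT and KO FM, and PSMF1 stays between 4063.1 and 4741.

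FM was compared with EtOH as serum-replete against hormone-starved, vehicle-treated cells. FM and EtOH differ in serum, in the vehicle and in the medium, which was free of phenol red during hormone starvation. The separate parts of these differences were not tested. Both comparisons below share the EtOH libraries of the DHT comparisons. In control, 16 of 40 members were higher in FM and 1 lower, beside 18.8% and 16.2% of all 18549 genes and 35.1% of abundant genes higher. A fold change of 1.5 was passed by 7 members in either direction, beside 21.3% of all genes. The median log2 fold change was 0.21 over the members, -0.01 over all genes and 0.15 over abundant ones. In the KO, 22 were higher and 1 lower, beside 17.3% and 14.4%, with 31.6% of abundant genes higher. There 8 members passed the fold change beside 19.3%, and the medians were 0.38, -0.01 and 0.13, respectively.

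All 16 members higher in FM in control were among the 22 in the KO. PSME4 led in control with 3248.8 and 2806.1 normalized counts in EtOH and 5357.1 and 5823.5 in FM (0.88 ± 0.11, DESeq2 adjusted p = 1.11e-13). In the KO it went from 2351.1 and 2602.1 to 3959.3 and 3843.8 (0.66 ± 0.11, adjusted p = 8.99e-08). PSMD11 led in the KO, from 3151.4 and 3198.8 to 5444.2 and 5531.6 (0.79 ± 0.10, adjusted p = 4.52e-14), and had 0.78 ± 0.10 in control. The FM libraries of both genes were above the EtOH libraries without overlap in either line.

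PSMD12, a lid subunit, and the chaperone PSMD5 followed in control. PSMD12 was at 2870.1 and 2774.3 normalized counts in EtOH and 4290.3 and 4856.6 in FM (0.70 ± 0.11, adjusted p = 1.01e-08), and PSMD5 at 730.8 and 582.9 in EtOH and 1046.9 and 1074.8 in FM (0.69 ± 0.14, adjusted p = 1.17e-05). In the KO the next were PSMD8, from 3356 and 3267.5 to 5319.2 and 5357.4 (0.69 ± 0.11), and PSMA7, from 7296.3 and 6906.6 to 10927.6 and 11989.4 (0.69 ± 0.16, adjusted p = 8.55e-05). PSMA7 did not pass in control (0.22 ± 0.16). PSMB2 and PSMA6, with 0.67 each in the KO, passed in both lines with 0.50 and 0.59 in control.

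By role, 8 non-ATPases of the 19S cap were higher in control and 9 in the KO, with 2 and 4 ATPases, 2 and 4 alpha subunits, and 1 and 2 constitutive beta subunits. PSMD4 and PSMD7 passed in neither line. The catalytic PSMB5 passed in the KO (0.38 ± 0.15, adjusted p = 0.0418) and not in control (0.13 ± 0.15), and PSMB6 (-0.06 and 0.17) and PSMB7 (0.07 and 0.08) in neither. PSMB6 in control turned with the libraries used: it was 0.30 (adjusted p = 0.023) with replicate 2 of control EtOH and control DHT left out and -0.35, also past the threshold, with replicate 1 of both left out. PSMF1 had 0.07 and 0.01.

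A fall was seen in PSME1 and PSMB10, both known as interferon-inducible. PSME1 was at 3369.7 and 4764.7 normalized counts in control EtOH and at 2699 and 2465.8 in control FM (-0.66 ± 0.16, adjusted p = 0.000189), without overlap. In the KO it had -0.37 ± 0.16 (adjusted p = 0.053). PSME2, its partner, had -0.27 ± 0.16 in control and 0.09 ± 0.16 in the KO and passed in neither. PSMB10 was at 33.9 and 46.1 in KO EtOH and 15.9 and 20.8 in KO FM (-1.14 ± 0.46, adjusted p = 0.0409), at counts of at most 49 per library. It did not pass in control (-0.40 ± 0.47), and no fit without 1 of the 4 KO libraries kept its call. PSMB9 had -0.74 ± 0.62 in control and -0.09 ± 0.55 in the KO.

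Leaving out a control EtOH library moved the count of members higher in FM in control from 16 to 11 (without replicate 1) or 23 (without replicate 2), and of those lower to 7 without replicate 1. In the KO the count higher was 12 without KO EtOH replicate 2, 13 without KO FM replicate 2, 16 without KO FM replicate 1 and 20 without KO EtOH replicate 1. COL1A1 fell with FM in both lines (-0.81 and -0.86). The basal marker KRT14 rose with FM in both lines (2.35 and 3.77), from 0 and 5.0 normalized counts in control EtOH to 14.4 and 10.7 in control FM and from 3.4 and 0.9 in KO EtOH to 26.1 and 30.7 in KO FM, while KRT5 and TP63 did not exceed 3.8. The part of these markers in the result was not tested. The difference of the FM responses (KO minus control) called 0 of 38 members (DESeq2, 1 higher and 0 lower at an unadjusted p under 0.05, edgeR calling 0), beside 1.53% of all 12971 genes tested. The exception at the unadjusted level was PSMA7, with 0.47 (95% interval 0.04 to 0.91, adjusted p = 0.274). Without control EtOH replicate 1, 9 members were called higher.

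Other genes of the pathway were taken from 7 lists of 39 matched genes, of which 37 were tested: assembly chaperones of the core, further subunits, transcription control of proteasome genes, associated enzymes and receptors, ubiquitin and its activation, the HSP70 link and the VCP unfoldase. With DHT 11 rose and 1 fell in control, and 7 and 0 in the KO. KO against control gave 0 higher and 2 lower in EtOH, 0 and 7 in DHT, and 3 and 1 in FM. FM against EtOH gave 13 higher and 2 lower in control and 17 and 0 in the KO. The difference tests called 0 of 36. Over all genes, 11.2% rose with DHT in control and 8.02% in the KO (20.5% and 14.7% of abundant genes), 8.73% were lower in KO DHT (15.1% of abundant genes), and 18.8% and 17.3% were higher with FM (35.1% and 31.6% of abundant genes). Nothing particular to these lists is read from their counts. Except for BAG1, no fit with a library left out is given for these genes or counts, which also rest on the control EtOH and control DHT libraries.

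VCP unfolds ubiquitinated proteins ahead of the proteasome with its cofactor NPLOC4, and all 3 genes of that list rose with DHT in control. The log2 fold change of VCP was 0.72 (DESeq2 adjusted p = 9.82e-16) in control and 0.42 in the KO, and of NPLOC4 0.55 and 0.41, all past the threshold. In DHT, VCP was lower in the KO (log2 fold change -0.38, adjusted p = 0.000159).

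Of the 5 genes of transcription control, 2 rose with DHT in each line. NFE2L1 had 0.46 in control (adjusted p = 0.000322) and 0.38 in the KO (adjusted p = 0.00725), and NGLY1, the glycosidase that processes its protein, 0.59 and 0.42. With FM, DDI2, the protease of the same step, had 0.82 and 0.61, and NGLY1 0.67 and 0.73, whereas NFE2L1 did not pass (0.13 and -0.04). KO against control gave no call for NFE2L1 in any condition, and for NGLY1 -0.46 in DHT (adjusted p = 0.00154).

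The 2 cap-bound deubiquitinases led the enzymes and receptors with FM. UCHL5 had 0.98 in control and 1.02 in the KO, and USP14 0.81 and 0.64, and of this list of 11 genes 5 rose in each line. With DHT, 1 (USP14, 0.31) rose in control and 0 in the KO. UBA6, a ubiquitin-activating enzyme, rose with DHT in control (0.35, adjusted p = 0.0492) and had 0.26 in the KO, which did not pass. It also rose with FM in control (0.54, adjusted p = 0.000414) and was lower in the KO in FM (-0.38, adjusted p = 0.0339), the 1 call of its list in each of these comparisons. Of the 6 genes of ubiquitin and its activation, 3 rose with DHT in control and 2 in the KO.

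Among 5 assembly chaperones, PSMG1 was lower in the KO in EtOH (-0.48, adjusted p = 0.0389) and in DHT (-0.53, adjusted p = 0.0109) and higher with FM in both lines (0.61 and 0.93). PSMG4 fell with DHT and with FM in control (-0.53 and -0.54). The ubiquitin receptor ADRM1 rose with DHT in control (0.50) and with FM in the KO (0.54). HSPA8, the constitutive HSP70 to which Bag-1 binds, rose with DHT (0.53 and 0.40) and FM (0.46 and 0.25) in both lines. KO and control did not differ past the threshold in HSPA8 (0.05 in EtOH, -0.07 in DHT, -0.16 in FM). Of the 5 genes of the HSP70 link, 2 were higher in the KO in FM, and 1 (BAG1) was lower in EtOH and in DHT. Over all genes, 9.27% were higher in FM, and 5.1% and 8.73% were lower in EtOH and DHT. The testis subunit PSMA8 was listed at 0 in every library.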

How the data were processed

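Polyadenylated RNA of 12 libraries, 2 in each of 6 groups, was sequenced with a stranded kit. The authors aligned reads to GRCh37 with TopHat2 2.0.11 after CASAVA 1.7 and used HTSeq 0.5.3p3 to count reads over Ensembl genes. The annotation release and strand setting are not given in the sources used here. The deposited values are raw counts per gene. The 5 tally rows that name no gene held 26.9% to 31.5% of the reads and were left out. Depth was 20826843 to 30354666 gene counts, and floors of 3 counts cover counting error only.

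Genes with at least 10 counts over all libraries were tested with DESeq2 1.42.0 (R 4.3.3) in 1 fit of all 12 libraries by group, with median-of-ratios size factors, Wald tests, unshrunken fold changes and Benjamini-Hochberg adjustment over all genes tested. A gene was called at adjusted p at most 0.05. A total of 9 comparisons were made, including 2 differences of differences. TPM used the canonical transcript length of GENCODE v44lift37. Promoter sequences are from RefSeq. The labels call the libraries biological duplicates, and p-values measure the spread between these libraries. The analysis was tested on simulated data. The labels do not say that a replicate number marks a shared batch. The deviations of same-numbered libraries correlated between control EtOH and control DHT (0.692) but not across the 15 pairs of groups as a whole (mean 0.033, lowest -0.415, 6 over 0.1), so the numbers were not used as pairs.

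Alternatives were edgeR 4.0.16 (quasi-likelihood, TMM), other size factors, other filters, only the samples compared, a replicate block, and each library left out. The members and lists were chosen with earlier results of these data known. Named members were, per comparison, up to 4 of the largest rises and falls among those called, the catalytic and inducible core subunits, PSME1, PSME2, PSMF1 and the most and least abundant per length. In the other lists they were up to 2 genes per list with the smallest adjusted p, plus BAG1 and NFE2L1. A gene that this rule would name is not reported here.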

Additional observations from a re-analysis of the deposited data

How the results depend on the processing

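The number of members higher with DHT in control (18) was 7 with total-count size factors and 3 in a fit of only the samples compared, and ranged from 9 to 29 with 1 library left out. Members lower (0) numbered 1 with total-count size factors and 1 with libraries 1 of control EtOH and control DHT both left out, and 0 to 1 with 1 library left out. In the KO, members higher with DHT (7) were 4 with total-count size factors and 3 to 4 with 1 library left out, and members lower (0) were 1 with only the samples compared.

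For KO against control in EtOH, members higher (1) were 0 with only the samples compared and 0 to 1 with 1 library left out. Members lower (0) were 1 with libraries 2 of both control groups left out, 20 with libraries 1 of both left out, and 0 to 13 with 1 library left out. The members' median (-0.14) ranged from -0.26 to 0.02 with 1 library left out (0.02 without control EtOH replicate 2) and was 0.02 with libraries 2 of both left out. In DHT, members lower (9) were 4 with edgeR, 4 with TMM size factors, 3 with total-count size factors, 26 with libraries 1 of both left out, and 1 to 16 with 1 library left out. In FM, members higher (1) were 5 and members lower (1) were 3 with only the samples compared, and with 1 library left out they were 0 to 0 and 0 to 1. The FM median (-0.01) was 0.01 with edgeR, 0.01 with TMM size factors, 0.06 with total-count size factors, 0.01 with at least 10 counts in every sample, and -0.05 to 0.04 with 1 library left out (0.04 without KO FM replicate 1).

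For FM against EtOH in control, members higher (16) were 27 with libraries 2 of both left out and 11 to 23 with 1 library left out. Members lower (1) were 7 with libraries 1 of both left out and 1 to 7 with 1 library left out. With libraries 2 of both left out, PSMB6 went from -0.06 to 0.30 (adjusted p = 0.023, past the threshold) and BAG1 from -0.11 to 0.26. In the KO, members higher (22) were 12 to 20 with 1 library left out, and members lower (1) were 2 with total-count size factors, 2 with at least 10 counts in every sample and 0 to 0 with 1 library left out. For the difference of FM responses, members higher (0) were 17 and lower (0) were 2 with libraries 1 of both left out, and members higher were 0 to 9 with 1 library left out. Its median (0.13) ranged from -0.05 (without control EtOH replicate 2) to 0.26 with 1 library left out and was -0.05 with libraries 2 of both left out. The causes of these changes were not tested.

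With the replicate block, members higher were 17 and 7 with DHT in control and KO, 1 for KO against control in EtOH, and 17 and 23 with FM in control and KO, and members lower were 10 for KO against control in DHT, 2 in FM, and 2 with FM in the KO. Same-numbered libraries deviated together in control EtOH and control DHT (correlation 0.692) but not in KO EtOH and KO DHT (-0.214), and the labels give the numbers no shared batch.

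Leaving out both libraries 1 or both libraries 2 was chosen after seeing the data. Summing alternate-haplotype identifiers was not run, because the reference table used here holds none. With 2 libraries a group, a library left out leaves a lone one that is assumed to vary like the others. PSMB8, PSMB9 and PSMB10 are limited by depth.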
